A study of Mus musculus with 6 samples.

Results

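The smooth muscle actins and the contractile genes measured with them form a set of 10 genes among the 24421 gene symbols of the table. The set holds the actins Acta2 and Actg2, the transgelins Tagln and Tagln2, the calponins Cnn1 and Cnn2, the regulatory myosin light chain Myl9, the tropomyosins Tpm1 and Tpm2, and the alpha-actinin Actn1. They were chosen by symbol, with their measured levels in each line and their G-1 differences in these libraries already known. Those values are therefore given as a description, and calls of these genes are counted only beside the share of all genes called. The data are bulk RNA sequencing of 3 murine pancreatic ductal adenocarcinoma cell lines, 2838c3, 6419c5 and 6499c4. Each line was treated for 16 hours with G-1 at 250 nM, a compound that activates the membrane oestrogen receptor GPER, or with the solvent DMSO alone (vehicle). There was 1 library per line and treatment, so that 3 G-1 libraries stand against 3 vehicle libraries. All were grown in DMEM with serum, and the labels give no genotype for the lines and do not say whether a line is 1 clone. No culture was repeated within a treatment, so for G-1 against vehicle the spread is that between the 3 lines and may include technical spread. For comparisons between lines, the spread in the test is what remains after line and treatment. The p-values between lines therefore do not measure the spread between repeat cultures of a line.

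Actin filaments and myosin make the force of a muscle cell, and the same machinery forms stress fibres in other cells. Acta2 (smooth muscle alpha-actin) and Actg2 (enteric smooth muscle gamma-actin) are the filament actins of smooth muscle, and Acta2 is also the usual marker of contractile fibroblasts in pancreatic tumours. Tagln (SM22) and Cnn1 bind actin in smooth muscle, whereas their relatives Tagln2 and Cnn2 are widely expressed. Myl9 is a light chain whose phosphorylation switches myosin on, Tpm1 and Tpm2 lie along the actin filament, and Actn1 crosslinks filaments at adhesions. Many of these genes are targets of serum response factor, which binds the CArG box, a motif made of an A- and T-rich core between a pair of C and a pair of G.

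The RefSeq promoter windows are shown because a CArG box stands in those of Acta2, Myl9 and Cnn2, 3 genes whose levels differed between the lines to very unequal extents. The windows ran from 250 bases before to 50 bases after the gene's start in GRCm38.p6, and 8 of the 10 genes had one. Tagln and Actg2 had no window and were not searched. Each line gives 30 bases on the gene's own strand, with the box in capitals. Acta2 is on the minus strand of chromosome 19, and both of its boxes have 1 G or C in the core.
Acta2, chr19:34255438-34255467: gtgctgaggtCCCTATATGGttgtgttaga
Acta2, chr19:34255388-34255417: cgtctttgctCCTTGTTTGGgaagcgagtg
Myl9, chr2:156775293-156775322: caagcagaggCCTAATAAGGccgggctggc
Myl9, chr2:156775355-156775384: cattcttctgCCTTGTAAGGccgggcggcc
Cnn2, chr10:79988534-79988563: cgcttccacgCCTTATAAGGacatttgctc
The boxes begin 84 and 34 bases before the RefSeq start in Acta2, 161 and 99 bases before it in Myl9, and 56 bases before it in Cnn2. The GENCODE annotation, which gives the gene positions below, starts Acta2 217 bases further upstream, so both Acta2 boxes lie after its start there; for Myl9 and Cnn2 the starts differ by 44 and 16 bases. A box with a core of A and T alone was found in 2 of the 8 windows (the first of Myl9 and that of Cnn2) and in 1.63% of 32851 RefSeq promoters. With up to 1 G or C allowed in the core, 3 of the 8 windows and 9.98% of all promoters held a box. The windows of Tagln2, Cnn1, Tpm1, Tpm2 and Actn1 held none. The motif reads the same way on both strands, overlapping matches were allowed, and a match describes the letters of the window only.

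The 10 genes spanned nearly 4 orders of magnitude in FPKM, the reads per kilobase of gene length on the authors' library scale. Over the 6 libraries the mean level was 1041 FPKM for Tagln2, 290 FPKM for Tpm1, 208 FPKM for Actn1 and 176 FPKM for Cnn2. It was 60.9 FPKM for Acta2, 14.3 FPKM for Tpm2, 1.65 FPKM for Myl9, 1.44 FPKM for Tagln, 0.374 FPKM for Actg2 and 0.111 FPKM for Cnn1. The widely expressed Tagln2 and Cnn2 thus stood far above Tagln and Cnn1 of the same families, and the Acta2 mean came almost wholly from a single line. Reads in genes ranged from 5480468 to 8927155 per library, and a library at 0 reads for a gene allows a level of up to 3 reads (0.336 to 0.547 RPM). Read intervals and this limit cover counting error only. The test took the 10748 genes whose mean reached 1 FPKM. Of the 10 genes 8 passed this filter, and Actg2 and Cnn1 did not pass. Acta2, Tagln and Myl9 passed although some of their libraries were below 1 FPKM. Tagln passed only through 6419c5, with a mean of 2.85 FPKM there, 0.922 FPKM in 2838c3 and 0.551 FPKM in 6499c4. Nothing is therefore read from its calls between lines.

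**Figure D1:**
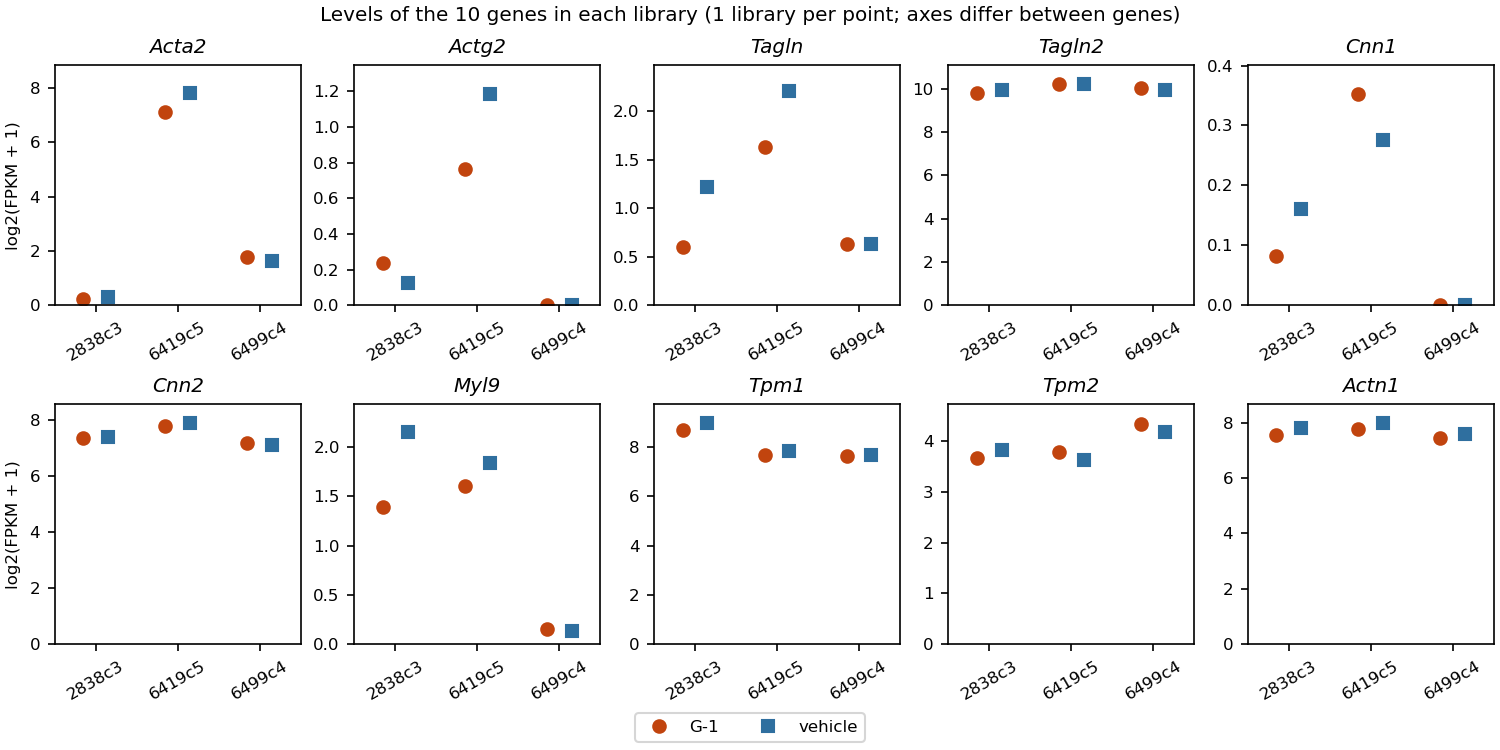
Level of each of the 10 genes as log2(FPKM + 1) in each library, by line, with G-1 as circles left of vehicle as squares. The vertical axes differ between genes; Acta2 stands far higher in 6419c5 than in the other lines in both treatments, and Tagln2, Cnn2 and Actn1 lie within a narrow range.

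Acta2 (GRCm38, chr19:34241090-34255590, minus strand) was the gene of the set that differed most between lines. It had 0.182 FPKM (4 reads) with G-1 and 0.227 FPKM (5 reads) with vehicle in 2838c3, 137 FPKM (1913 reads) with G-1 and 224 FPKM (4108 reads) with vehicle in 6419c5, and 2.47 FPKM (51 reads) with G-1 and 2.12 FPKM (50 reads) with vehicle in 6499c4. The lines did not overlap, and their order was 6419c5, 6499c4, 2838c3 in both treatments. In reads on the deposited scale, 6419c5 had 750 times the level of 2838c3 with G-1 (95% counting interval 292 to 2754). With vehicle the ratio of these lines was 984 (421 to 3033). For 6499c4 against 2838c3 the ratio was 13.6 (4.99 to 51.7) with G-1 and 9.35 (3.75 to 30.03) with vehicle. These ratios rest on 4 and 5 reads in 2838c3, and in both comparisons the intervals with G-1 and with vehicle overlap. On the log2(FPKM + 1) scale, which understates differences of low genes, Acta2 differed by 7.19 for 6419c5 against 2838c3, by 1.45 for 6499c4 against 2838c3 and by -5.74 for 6499c4 against 6419c5. Of the 10748 genes tested, 4 including Acta2 lay at least as far from 0 in the first of these comparisons, and 8 in the third.

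Reads of other actins could in principle be counted for Acta2, since the coding sequences are alike. In the GRCm38 annotation its coding sequence was closest to that of the skeletal muscle actin Acta1, with 85.4% identity. It was 84.2% identical to that of Actg2, and with either gene no shared run exceeded 29 bases. It was 82.8% identical to that of the cytoplasmic beta-actin Actb, with a longest shared run of 47 bases. With the cytoplasmic gamma-actin Actg1 on chromosome 11 the identity was 81.5%. The longest run shared with Actg1 is printed to show how much the most alike stretch holds, bases 910 to 965 of the Acta2 coding sequence.
Acta2 and Actg1: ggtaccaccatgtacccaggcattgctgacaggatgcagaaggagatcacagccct
Of the 2146 stretches of 50 bases in the Acta2 transcripts, 7 (0.326%) also occurred in another gene. Whether reads of other actins were counted for Acta2 was not tested.

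Actg2 (chr6:83512905-83536265) was low in every library. It had 0.178 FPKM (2 reads) with G-1 and 0.0889 FPKM (1 read) with vehicle in 2838c3, 0.698 FPKM (5 reads) with G-1 and 1.28 FPKM (12 reads) with vehicle in 6419c5, and 0 reads in both libraries of 6499c4. The 2 libraries of 6419c5 were the highest, in the same line as for Acta2. Acta2 made up 3.91% with G-1 and 5.58% with vehicle of the summed FPKM of 6 actin genes in 6419c5, and at most 0.0883% in any library of the other lines. The cytoplasmic beta-actin Actb, the main actin of non-muscle cells, held 82.8 to 89.9% of that sum over the 6 libraries, and Actg1 held 10.1 to 14.4%.

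Tagln (chr9:45929619-45936058) was also highest in 6419c5. It had 0.517 FPKM (7 reads) with G-1 and 1.33 FPKM (18 reads) with vehicle in 2838c3, 2.08 FPKM (18 reads) with G-1 and 3.62 FPKM (41 reads) with vehicle in 6419c5, and 0.550 FPKM (7 reads) with G-1 and 0.551 FPKM (8 reads) with vehicle in 6499c4. The libraries of 6419c5 stood above all others, and those of 2838c3 and 6499c4 overlapped. These reads are uncertain: 62.4% of the exon bases of Tagln overlap the antisense gene Gm48529 and 5.43% overlap Pcsk7 on the plus strand. Pcsk7 had 5.92 to 10.6 FPKM over the libraries, and it is not known from the sources used here whether reads were counted by strand. Tagln2 (chr1:172500047-172507380) had 881 FPKM with G-1 and 981 FPKM with vehicle in 2838c3, 1184 FPKM with G-1 and 1201 FPKM with vehicle in 6419c5, and 1033 FPKM with G-1 and 965 FPKM with vehicle in 6499c4. Tagln2 was highest in 6419c5, whereas 2838c3 and 6499c4 overlapped, and it held 99.7 to 99.9% of the summed transgelin FPKM in every library.

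Cnn1 (chr9:22099216-22109630), a calponin of differentiated smooth muscle, was at the limit of detection. It had 0.0590 FPKM (1 read) with G-1 and 0.118 FPKM (2 reads) with vehicle in 2838c3, 0.277 FPKM with G-1 and 0.211 FPKM with vehicle (3 reads each) in 6419c5, and 0 reads in both libraries of 6499c4, which allows up to 3 reads per library. No difference of Cnn1 between lines or treatments was detectable at this depth. Cnn2 (chr10:79988584-79996062) had 160 FPKM with G-1 and 167 FPKM with vehicle in 2838c3, 218 FPKM with G-1 and 234 FPKM with vehicle in 6419c5, and 141 FPKM with G-1 and 136 FPKM with vehicle in 6499c4. Its lines did not overlap, and their order from the highest was 6419c5, 2838c3, 6499c4. Cnn2 and its relative Cnn3 shared the calponin FPKM almost evenly, with 49.3 to 59.4% for Cnn2.

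Myl9 (chr2:156775420-156781658) was nearly at 0 in 6499c4. It had 1.62 FPKM (15 reads) with G-1 and 3.45 FPKM (32 reads) with vehicle in 2838c3, 2.04 FPKM (12 reads) with G-1 and 2.59 FPKM (20 reads) with vehicle in 6419c5, and 0.115 FPKM with G-1 and 0.101 FPKM with vehicle (1 read each) in 6499c4. The lines 2838c3 and 6419c5 overlapped, and both stood above 6499c4. On the log2(FPKM + 1) scale the difference was -1.63 for 6499c4 against 2838c3 and -1.57 for 6499c4 against 6419c5. The other regulatory light chains, Myl12a and Myl12b, held nearly all of the summed FPKM of the 3 genes, and Myl9 held 0.0196 to 0.692%.

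Tpm1 (chr9:67022590-67049406) differed from Acta2 in its order: it was highest in 2838c3, the line with least Acta2. It had 410 FPKM with G-1 and 492 FPKM with vehicle in 2838c3, 204 FPKM with G-1 and 228 FPKM with vehicle in 6419c5, and 199 FPKM with G-1 and 204 FPKM with vehicle in 6499c4. The level in 6419c5 was 0.499 times that of 2838c3 with G-1 and 0.463 times with vehicle, and the log2 difference for 6499c4 against 6419c5 was -0.10, with ranges that nearly met. Tpm2 (chr4:43514711-43523765) had 11.8 FPKM with G-1 and 13.2 FPKM with vehicle in 2838c3, 12.8 FPKM with G-1 and 11.3 FPKM with vehicle in 6419c5, and 19.3 FPKM with G-1 and 17.3 FPKM with vehicle in 6499c4. Tpm2 was highest in 6499c4, and the other lines overlapped. Tpm1 made up 24.5 to 34.9% and Tpm2 0.935 to 2.95% of the summed tropomyosin FPKM, beside 46.2 to 52.0% for Tpm4. Both genes, like Actn1, make muscle and non-muscle isoforms that the gene-level values do not separate.

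Actn1 (chr12:80167547-80260371) varied little between lines. It had 186 FPKM with G-1 and 222 FPKM with vehicle in 2838c3, 219 FPKM with G-1 and 254 FPKM with vehicle in 6419c5, and 173 FPKM with G-1 and 192 FPKM with vehicle in 6499c4. With both treatments pooled, the lines overlapped except 6419c5 with 6499c4. Within each treatment the order from the highest was 6419c5, 2838c3, 6499c4. The ratio of 6419c5 to 2838c3 was 1.18 (1.14 to 1.23) with G-1 and 1.14 (1.11 to 1.18) with vehicle. For 6499c4 to 2838c3 it was 0.932 (0.897 to 0.967) with G-1 and 0.866 (0.837 to 0.895) with vehicle. Of the summed alpha-actinin FPKM, 48.2 to 54.4% was Actn1 and nearly all of the rest was Actn4, while the muscle genes Actn2 and Actn3 were at or near 0.

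**Figure D2:**
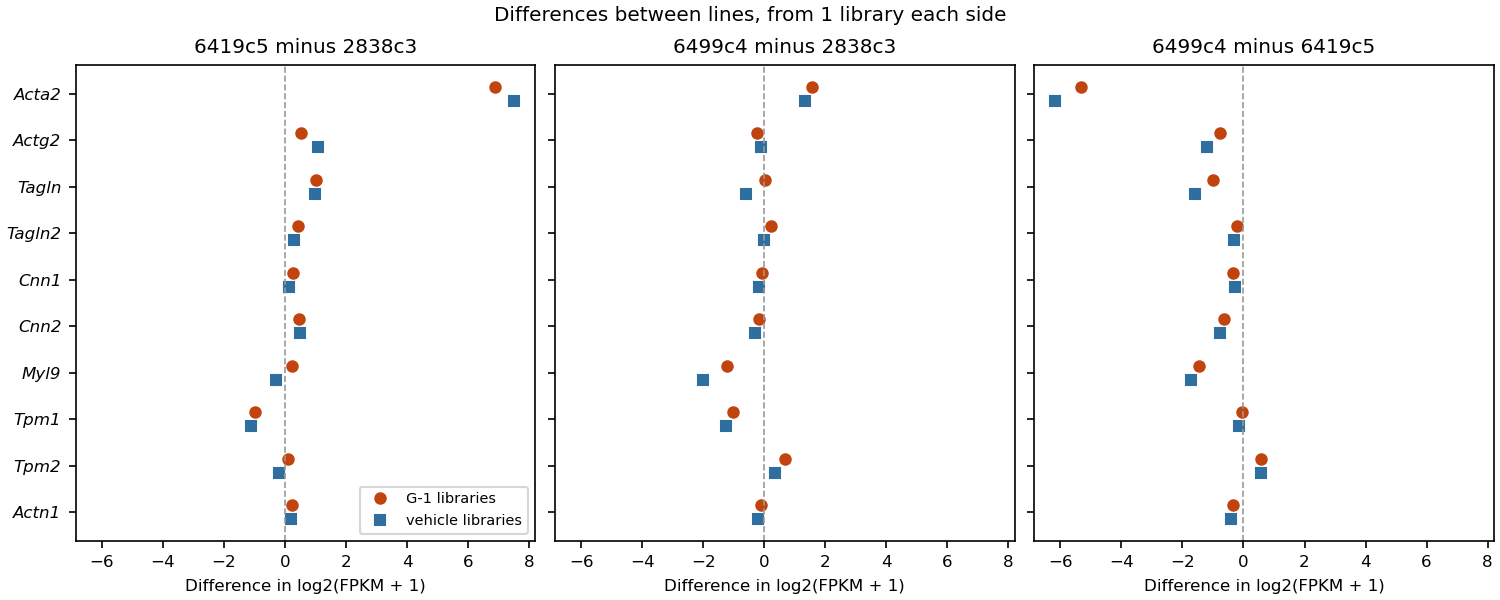
Difference between lines in log2(FPKM + 1) for each gene, with the G-1 libraries as circles and the vehicle libraries as squares; each point sets 1 library against 1 library. Acta2 lies near 7 for 6419c5 minus 2838c3 in both treatments, and Tpm1 is below 0 in both comparisons with 2838c3.

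**Figure D3:**
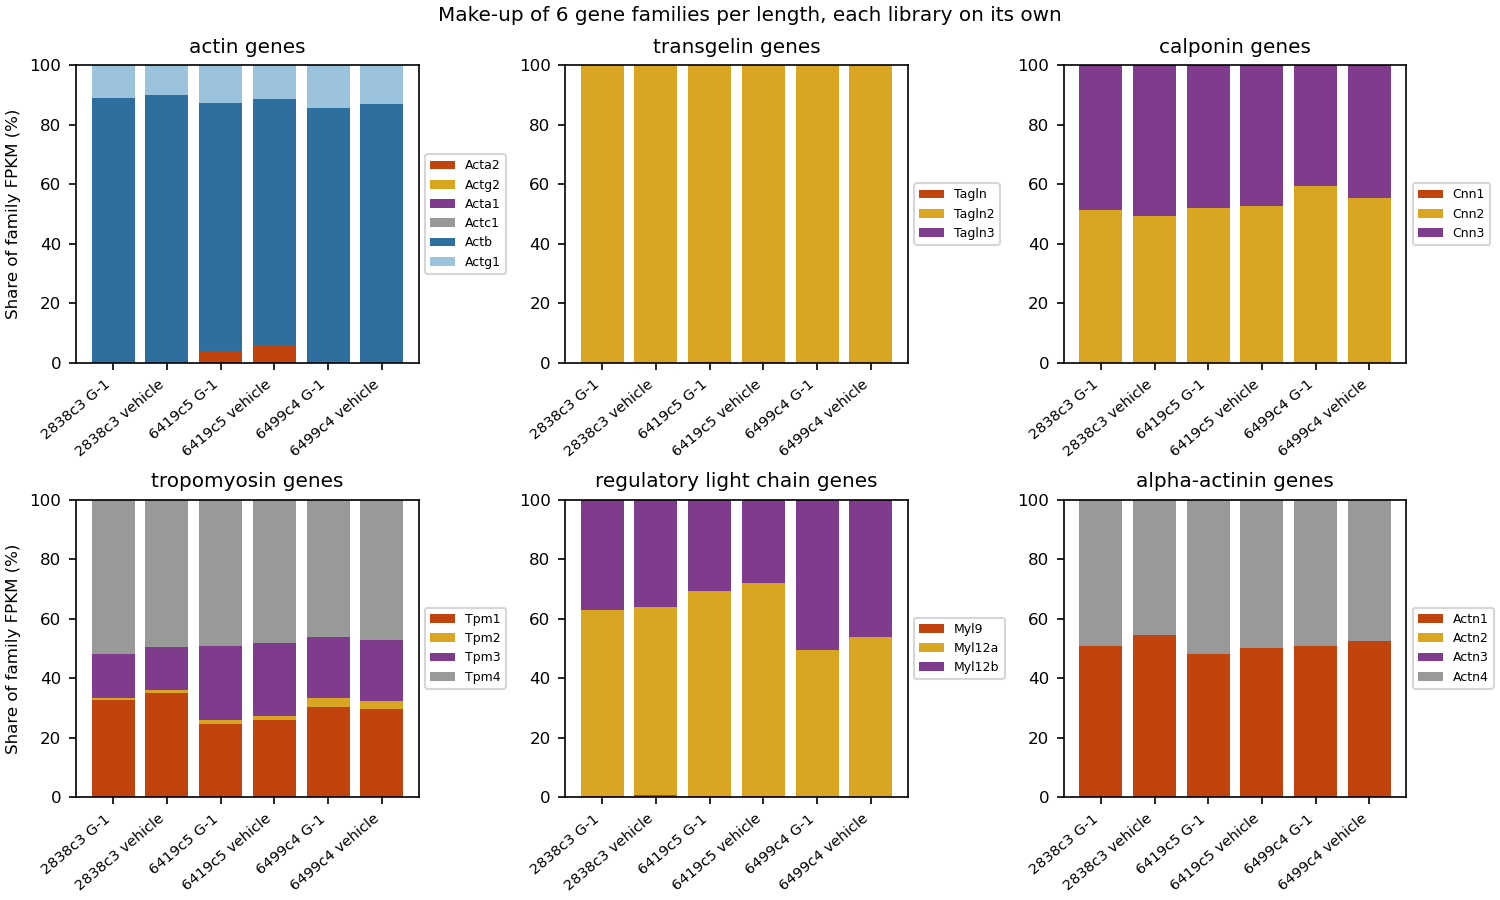
Share in percent of each gene in the summed FPKM of its family, as stacked bars, for each library with G-1 left of vehicle in each line. Acta2 is visible among the actins only in 6419c5, and Tagln, Cnn1 and Myl9 are too small to see beside Tagln2, Cnn2 with Cnn3, and Myl12a with Myl12b.

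Between lines, many genes of the whole table differed, and the 8 genes tested have to be read beside that background. With limma over all genes, 51.5% of the 10748 genes were called at an adjusted p of at most 0.05 for 6419c5 against 2838c3, and 6 of the 8 were among them, 5 higher and 1 (Tpm1) lower. For 6499c4 against 2838c3 the background was 55.6%, and 5 of the 8 were called, Acta2 and Tpm2 higher and Cnn2, Myl9 and Tpm1 lower. For 6499c4 against 6419c5 the background was 45%, and 7 of the 8 were called, Tpm2 higher and 6 lower. The genes were chosen with these levels known, and nothing is read from the counts. Tagln, called in both comparisons with 6419c5, passed the filter only through that line.

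G-1 against vehicle asks what the GPER agonist did to these genes. In 6419c5, the line with most Acta2, the level of Acta2 with G-1 was 0.611 times that with vehicle (95% counting interval 0.578 to 0.645). The ratio was 0.802 (0.159 to 3.73) in 2838c3 and 1.16 (0.773 to 1.76) in 6499c4, both with intervals that include 1 and few reads. Acta2 was thus lower with G-1 beyond counting error in a single pair of libraries, and the interval does not cover the spread between cultures. In 6419c5, 1.44% of the genes tested had a log2 difference at least as far from 0 as that of Acta2, -0.71.

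Tagln had a ratio of G-1 to vehicle of 0.390 (0.138 to 0.979) in 2838c3, 0.576 (0.312 to 1.03) in 6419c5 and 0.999 (0.308 to 3.15) in 6499c4. Myl9 had a ratio of 0.470 (0.237 to 0.894) in 2838c3, 0.787 (0.351 to 1.69) in 6419c5 and 1.14 (0.0145 to 89.6) in 6499c4. Both low genes had ratios below 1 in 2838c3 and 6419c5, and of these 2 lines only 2838c3 had intervals that leave out 1. For Actg2 the ratio was 2.01 (0.104 to 118) in 2838c3 and 0.547 (0.151 to 1.67) in 6419c5, and for Cnn1 it was 0.501 (0.00850 to 9.63) in 2838c3 and 1.31 (0.176 to 9.80) in 6419c5. At these depths no difference of Actg2 or Cnn1 was detectable, and in 6499c4 both were at 0 reads with G-1 and with vehicle.

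Actn1 had the narrowest set of ratios, 0.834 (0.806 to 0.864) in 2838c3, 0.862 (0.830 to 0.896) in 6419c5 and 0.898 (0.866 to 0.931) in 6499c4. It was lower with G-1 in all 3 lines, with no interval that reaches 1. Its many reads make these intervals narrow. Of the genes tested, 19.5% in 2838c3, 23.0% in 6419c5 and 47.2% in 6499c4 had a log2 difference at least as far from 0 as Actn1. Tpm1 had ratios of 0.834 (0.813 to 0.855) in 2838c3, 0.898 (0.860 to 0.936) in 6419c5 and 0.977 (0.941 to 1.01) in 6499c4. Tpm1 was lower in all 3 lines, and in 6499c4 its interval includes 1. Tpm2 had ratios of 0.896 (0.771 to 1.04) in 2838c3, 1.13 (0.945 to 1.35) in 6419c5 and 1.12 (0.990 to 1.27) in 6499c4, with no interval that leaves out 1.

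Tagln2 had ratios of 0.899 (0.875 to 0.923) in 2838c3, 0.986 (0.959 to 1.01) in 6419c5 and 1.07 (1.04 to 1.10) in 6499c4. Its difference with G-1 had opposite signs in 2838c3 and 6499c4. Cnn2 had ratios of 0.962 (0.910 to 1.02) in 2838c3, 0.931 (0.881 to 0.985) in 6419c5 and 1.04 (0.975 to 1.10) in 6499c4, so that only in 6419c5 did the interval leave out 1.

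**Figure D4:**
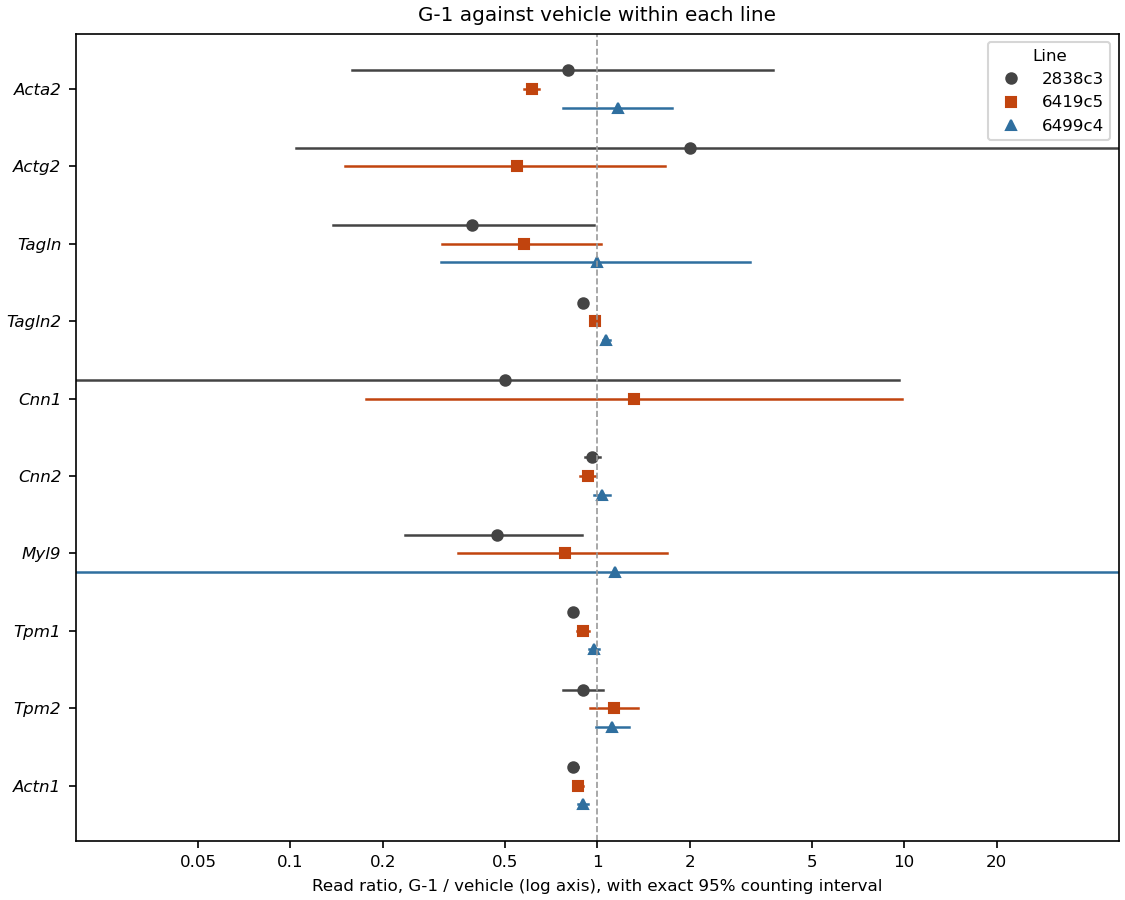
Ratio of reads with G-1 to reads with vehicle on the deposited library scale, on a log axis, for each gene and line; bars are exact 95% counting intervals, cut at the edges of the axis for Actg2, Cnn1 and Myl9. Actn1 lies left of 1 in all 3 lines, and Acta2 lies left of 1 with a narrow bar in 6419c5.

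Over the 3 lines, the mean log2 difference of G-1 against vehicle was -0.21 (SE 0.05) for Actn1, -0.15 (SE 0.06) for Tpm1, -0.40 (SE 0.18) for Tagln, -0.33 (SE 0.18) for Myl9 and -0.20 (SE 0.16) for Acta2. It was -0.04 (SE 0.06) for Cnn2, -0.03 (SE 0.07) for Tagln2 and 0.06 (SE 0.09) for Tpm2, with n = 3 lines each. Each SE is that of limma, which draws the variance of a gene toward that of genes of like level. The SD of the 3 line differences themselves ran from 0.05 for Actn1 to 0.45 for Acta2. Actn1, Tpm1 and Tagln were lower with G-1 in all 3 lines, 3 of the 8, and none was higher in all 3. Among the genes tested, 17.5% were lower in all 3 lines and 15.4% were higher in all 3. The difference of Tagln in 6499c4 was nearly 0. The median difference of the 8 genes was -0.18, beside -0.01 over all genes tested. In limma over all genes, 0.0279% were called for G-1, which is 3 genes, and none of the 8 was among them; 1081 genes had an unadjusted p of at most 0.05. With limma-voom on the recovered reads 1.57% were called, 169 genes, and Acta2 (log2 difference -0.66) and Actn1 (-0.21) were among them. Voom weights each value by its read depth and leans on a variance pooled over genes. Without the libraries of 6419c5 the mean difference of Acta2 was 0.05, so its sign rests on that line. Nothing is read from these counts, since the choice of the genes used the same contrast.

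**Figure D5:**
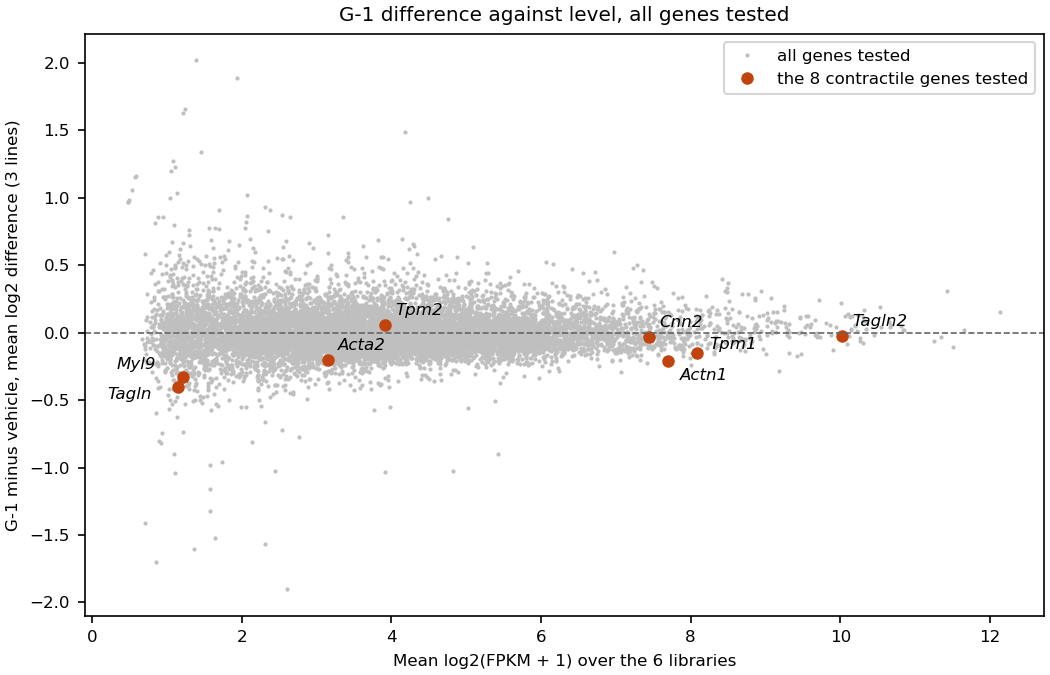
Mean log2 difference of G-1 minus vehicle over 3 lines against mean log2(FPKM + 1) over 6 libraries, for the 10748 genes tested (grey) and the 8 contractile genes among them (coloured). Actn1 and Tpm1 lie at high levels and below 0, and Tagln and Myl9 lie at the low end, where differences scatter most.

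The other genes of the contractile machinery were taken from 5 lists with 56 genes, of which 44 passed the filter. None of the 44 was called for G-1 in limma, at the background of 0.0279%. Of the 44, 17 (38.6%) were lower with G-1 in all 3 lines and 1 (2.27%) was higher in all 3, beside 17.5% and 15.4% of all genes, and the median difference was -0.06, beside -0.01. These lists hold mostly abundant genes and were not matched on level. The lines were set against each other in the same fit: 28 of the 44 were called for 6419c5 against 2838c3 (18 higher, 10 lower), 28 for 6499c4 against 2838c3 (7 higher, 21 lower), and 38 for 6499c4 against 6419c5 (8 higher, 30 lower). These are 63.6%, 63.6% and 86.4%, beside 51.5%, 55.6% and 45% of all genes. Acta1 and Fhl1, which passed the filter only through 6419c5, are among those called in both comparisons with 6419c5. The lists were chosen with earlier results of these data known, and nothing is read from these counts and shares.

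Among the other actins 3 of 5 passed the filter. Acta1, the skeletal muscle alpha-actin, had 5.38 FPKM with G-1 and 5.70 FPKM with vehicle in 6419c5 and at most 0.895 FPKM in any other library. Acta1 passed the filter only through the libraries of 6419c5, so nothing is read from its calls between lines. Actc1 (cardiac actin) and Actbl2 were at 0 in all 6 libraries. Actb was lower in 6499c4 than in 2838c3 by a log2 difference of -0.39 (limma, adjusted p = 0.00579). With G-1 the log2 difference was -0.11 for Actb, lower in all 3 lines, 0.04 for Actg1 and 0.14 for Acta1, and none passed the test (adjusted p of 0.625 to 0.829 in limma).

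In the families of the calponins, tropomyosins and actinins, Cnn3, Tpm3, Tpm4 and Actn4 passed the filter, 4 of 7. Each of these 4 had a lower level with G-1 in all 3 lines, beside 17.5% of all genes tested. The mean log2 differences were -0.14 for Cnn3, -0.10 for Tpm3, -0.08 for Tpm4 and -0.07 for Actn4. None of them passed the test (adjusted p of 0.474 to 0.694 in limma). Tpm4, a low molecular weight tropomyosin of non-muscle cells, had 303 FPKM with G-1 and 324 FPKM with vehicle in 6499c4, against 657 FPKM with G-1 and 699 FPKM with vehicle in 2838c3. Like Tpm1, Tpm4 was highest in 2838c3, and its log2 difference for 6499c4 against 2838c3 was -1.11 (limma, adjusted p = 1.65e-05).

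Of the myosin genes and their regulators 10 of 14 passed the filter. Mylk, the kinase that phosphorylates the regulatory light chain, had 15.9 FPKM with G-1 and 18.3 FPKM with vehicle in 6419c5, against 1.79 FPKM with G-1 and 1.51 FPKM with vehicle in 2838c3 and 1.65 FPKM with G-1 and 1.86 FPKM with vehicle in 6499c4. It was higher in 6419c5, the line with most Acta2, than in 2838c3 by 2.77 on the log2 scale (limma, adjusted p = 1.47e-05). Cald1, caldesmon, which restrains myosin on the actin filament, had 13.2 FPKM with G-1 and 15.0 FPKM with vehicle in 6499c4, the line with least Myl9. It had 89.7 FPKM with G-1 and 105 FPKM with vehicle in 2838c3 and 123 FPKM with G-1 and 149 FPKM with vehicle in 6419c5, and was lower in 6499c4 than in 2838c3 by a log2 difference of -2.70 (limma, adjusted p = 4.73e-07). Myh10, a non-muscle myosin heavy chain, had 9.51 FPKM with G-1 and 10.9 FPKM with vehicle in 6419c5, against 28.3 FPKM with G-1 and 35.3 FPKM with vehicle in 2838c3. With G-1, Cald1 had a log2 difference of -0.23, Myh10 of -0.18, Myh9 of -0.12 and the phosphatase subunit Ppp1r12a of -0.10, each lower in all 3 lines, with adjusted p of 0.349 to 0.652 in limma.

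Of serum response factor and its cofactors 8 of 9 passed the filter. For 6419c5 against 2838c3, 3 of the 8 were called (Mkl2, Elk3 and Fhl1, each higher in 6419c5), beside 51.5% of all genes tested. Nothing is read from this count. Srf itself had 22.7 FPKM with G-1 and 19.6 FPKM with vehicle in 2838c3, 18.0 FPKM with G-1 and 20.5 FPKM with vehicle in 6419c5, and 19.1 FPKM with G-1 and 16.7 FPKM with vehicle in 6499c4, and it did not pass the test between any lines (adjusted p of 0.131 to 0.516 in limma). Myocd, the cofactor of smooth muscle and heart, had at most 0.0718 FPKM in any library. Mkl2, an actin-regulated cofactor, had 10.3 FPKM with G-1 and 8.82 FPKM with vehicle in 6419c5, against 4.88 FPKM with G-1 and 5.93 FPKM with vehicle in 2838c3. It was higher in 6419c5 by 0.72 on the log2 scale (limma, adjusted p = 0.00517), while its relative Mkl1 did not pass the test in that comparison (-0.22, adjusted p = 0.0929 in limma). Elk3, a partner of serum response factor, had 40.6 FPKM with G-1 and 41.0 FPKM with vehicle in 6419c5, against 24.3 FPKM with G-1 and 26.4 FPKM with vehicle in 2838c3 (log2 difference 0.67, adjusted p = 0.00093 in limma). Fhl1, a LIM protein of muscle, had 4.28 FPKM with G-1 and 5.62 FPKM with vehicle in 6419c5 and at most 0.592 FPKM elsewhere. Fhl1 too passed the filter only through 6419c5, so nothing is read from its call between lines. With G-1 the log2 differences were -0.18 for Elk4, -0.18 for Fhl1 and -0.14 for Elk3, each lower in all 3 lines and not past the test (adjusted p of 0.56 to 0.706 in limma).

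The stress fibre and adhesion list had 19 of 21 genes past the filter. With G-1, 5 of the 19 were lower in all 3 lines and 1 was higher, beside 17.5% and 15.4% of all genes tested. Nothing is read from these counts. Among genes of the list with the same sign in all 3 lines, the largest log2 differences were -0.29 for Lpp and -0.26 for Flnc (filamin C). Vcl (vinculin) had -0.13 and Vasp 0.12, and the adjusted p of these genes was 0.363 to 0.591 in limma. Smtn (smoothelin), an actin-binding protein of smooth muscle, had 23.0 FPKM with G-1 and 25.8 FPKM with vehicle in 6419c5, against 54.2 FPKM with G-1 and 49.4 FPKM with vehicle in 2838c3. In 6499c4 it had 13.1 FPKM with G-1 and 12.5 FPKM with vehicle, the lowest of the 3 lines. Its log2 difference was -1.06 for 6419c5 against 2838c3 (limma, adjusted p = 0.000163). For 6499c4 against 2838c3 it was -1.93 (limma, adjusted p = 7.83e-06). Both were opposite in sign to those of Acta2. For 6499c4 against 6419c5 it was -0.88 (limma, adjusted p = 0.000397), with the same sign as Acta2. Vcl had 165 FPKM with G-1 and 191 FPKM with vehicle in 2838c3, 85.9 FPKM with G-1 and 88.8 FPKM with vehicle in 6419c5, and 51.1 FPKM with G-1 and 56.6 FPKM with vehicle in 6499c4, so that, like Tpm1, it was highest in 2838c3. The smooth muscle genes Lmod1 and Synpo2 of the same list were at or near 0.

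The genes most like Acta2 over the 6 libraries were found by the root mean square distance between log2(FPKM + 1) values, each gene centred on its mean. They were Gatm (distance 0.783), Tm4sf5, Rhox5, Klhl13 and B4galt4 (distance 0.959), none of them a contractile gene. Gatm, which makes the precursor of creatine, had 165 FPKM with G-1 and 162 FPKM with vehicle in 6419c5 and at most 0.149 FPKM elsewhere. These genes shared with Acta2 the high level in 6419c5, and the likeness rests on that line. For Tagln the nearest were Prodh (distance 0.174), Rgs12, Dcbld2, Pdia5 and Lrrc58 (distance 0.207).

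Markers of other cells were read beside these levels, because Acta2 is a marker of fibroblasts and smooth muscle. All 10 fibroblast markers were below 1 FPKM in every library, with Col1a2, Dcn, Lum, Postn and Thy1 at 0, and their sum was 0.405 to 1.15 FPKM with G-1 and 0.433 to 1.33 FPKM with vehicle. The highest sums, 1.15 FPKM with G-1 and 1.33 FPKM with vehicle, were those of 6419c5. Of 12 smooth muscle and pericyte markers 10 were below 1 FPKM in every library, with Abcc9 and Kcnj8 at 0. Smtn was above 1 FPKM in every library. Mcam had 0.518 to 2.84 FPKM and was below 1 FPKM in both libraries of 6499c4. Myh11, the smooth muscle myosin, had at most 0.127 FPKM, and desmin (Des) at most 0.0599 FPKM. The sum of that list was 13.7 to 57.2 FPKM with G-1 and 13.1 to 52.0 FPKM with vehicle, highest in 2838c3, the line with least Acta2. That sum was mostly Smtn, which had 54.2 FPKM with G-1 and 49.4 FPKM with vehicle in 2838c3. It therefore does not show how the other markers of the list differed between lines. Of 8 skeletal and cardiac muscle markers 6 were below 1 FPKM in every library, with Actc1, Myod1, Myog and Tnnt3 at 0. The sum of that list was 22.9 to 132 FPKM with G-1 and 27.0 to 143 FPKM with vehicle, mostly from cardiac troponin T (Tnnt2), which had 127 FPKM with G-1 and 137 FPKM with vehicle in 6419c5. Tnnt2 was higher in 6419c5 than in 2838c3 by 2.42 on the log2 scale (limma, adjusted p = 3.95e-06).

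Of 4 endothelial markers 3 were below 1 FPKM everywhere, and Cdh5 had 1.01 FPKM with G-1 and 1.58 FPKM with vehicle in 6419c5. Their sum was 0.121 to 1.13 FPKM with G-1 and 0.0665 to 1.82 FPKM with vehicle. Of 6 leukocyte markers 5 were below 1 FPKM everywhere, Adgre1 was at 0, and the sum was 1.65 to 3.35 FPKM with G-1 and 0.788 to 2.89 FPKM with vehicle. The labelled tumour epithelium was checked on 8 epithelial markers, whose sum was 3428 to 5845 FPKM with G-1 and 3417 to 5960 FPKM with vehicle. Krt8, Krt18, Krt19, Krt7 and Cdh1 were abundant, whereas Epcam reached 5.81 FPKM and Cldn4 stayed below 1 FPKM. The part of these markers in the differences between lines was not tested. In bulk samples a change in the share of cells that express a gene and a change in RNA per cell cannot be told apart.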

How the data were processed

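The authors deposited 1 table of FPKM values for 24421 gene symbols and 6 libraries; the unit was taken from the name of the deposited table and checked on its values. The submitters' processing notes name the tools STAR and DESeq2 but no step for either. The sources used here do not give the genome build, the annotation, the strandedness or the counting rule. The values are whole multiples of a step per gene and library, and whole reads were recovered within 0.01 reads for all 15712 genes above 0; the scale behind the FPKM followed median-of-ratios size factors within 3.46e-11, whereas read totals deviated by up to 10.1%. On simulated data the recovery was exact for 99.0% of 15182 genes.

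Genes whose mean reached 1 FPKM were fitted as log2(FPKM + 1) with limma 3.58.1 (R 4.3.3), with line and treatment as terms, a variance prior that follows the level (2 residual and 5.35 prior degrees of freedom), two-sided p-values and Benjamini-Hochberg adjustment over the 10748 genes, threshold 0.05. The fit was tested on simulated data. The lines pair the libraries by design, as each line gave both treatments. Read ratios carry exact 95% binomial intervals (scipy 1.17.1). Gene positions, overlaps and coding sequences come from GENCODE (GRCm38) and promoters from RefSeq (GRCm38.p6). Alternatives were a pseudocount of 0.1 FPKM, no filter or 5 FPKM, other library scales, no variance trend, limma-voom on recovered reads, no block, and leaving out libraries.

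The members and the lists were chosen with earlier results of these data known. All 10 members are named. From each list were named up to 4 genes with the largest mean G-1 difference, first those of the same sign in all lines, up to 3 with the largest difference between lines. Myocd, Lmod1, Synpo2, the genes at 0 and the markers are named for their roles. 1 further list is not reported here.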

Additional observations from a re-analysis of the deposited data

Results flagged for a closer look

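Tagln2 moved in opposite directions with G-1 in 2 lines. Its read ratio of G-1 to vehicle was 1.07 (95% counting interval 1.04 to 1.10) in 6499c4 and 0.899 (0.875 to 0.923) in 2838c3, so that the ratio in 6499c4 was 1.19 times that in 2838c3. The intervals lie on opposite sides of 1 and cover counting error only. With 1 library per line and treatment, the difference between lines was not tested.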

How the results depend on the processing

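For G-1 against vehicle the count of 3 called genes became 1 with a pseudocount of 0.1 FPKM, 0 without a filter, 6 with a filter of 5 FPKM, 0 without a variance trend and 169 with limma-voom on recovered reads. Without the replicate block, that is without pairing the libraries by line, it was 0, and leaving out each line in turn gave 0 (without 6419c5) to 11 (without 6499c4). For 6419c5 against 2838c3, 5533 genes were called, and 3430 to 5677 when each library was left out in turn. For 6499c4 against 6419c5 these numbers were 4836 and 2612 to 4708. The lowest counts came without a library of 6419c5; a line left with 1 library is assumed to vary like the others. For 6499c4 against 2838c3 no alternative moved the count by more than 1.5 times. The cause of these changes was not tested.

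Of 86 G-1 differences of the 8 genes under the alternatives, 84 moved by less than the spread between lines, and the sign changed for Acta2 without 6419c5 (0.05) and for Tagln2 without 2838c3 (0.04). Between lines, 20 of 102 values for 6419c5 against 2838c3, 8 of 102 for 6499c4 against 2838c3 and 20 of 102 for 6499c4 against 6419c5 moved by more than the spread between the treatments. The sign changed in 4 values (Myl9 and Tpm2), 2 values (Tagln and Tagln2) and 0 values of these comparisons, in that order. The filter and the variance trend cannot move a difference between lines either. Voom gave a log2 difference of 9.61 for Acta2 in 6419c5 against 2838c3, beside 7.19. Depth limits Actg2 and Cnn1 in all lines, Myl9 in 6499c4 and Acta2 in 2838c3, each with few or no reads.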
